A study of Homo sapiens with 6 samples.

Results

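Mucin genes were followed in COV434 cells after reexpression of BRG1, the ATPase that SMARCA4 encodes and that powers SWI/SNF remodeling of chromatin. The genes were chosen by name, as the rows of the deposited gene table for MUC1, MUC2, MUC4, MUC5AC, MUC5B, MUC13, MUC15, MUC16, MUC20 and MUC21, which make 10 of its 19899 genes. COV434 is an established ovarian line that the study counts among its lines of SCCOHT (the hypercalcemic type of ovarian small cell carcinoma), a tumor that lacks BRG1. The Control group received the plasmid pCDNA3-neo and the BRG1 group PBJ5-BRG1, with 3 samples in each. Every sample also received pBABE-puro, was put on 2 to 3 µg/ml puromycin after 24 hours and was kept on it for 3 days. All samples therefore come from 1 line, and each is a puromycin-selected pool in which BRG1 was supplied from a plasmid.

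Mucins are large glycoproteins whose backbone is rich in serine, threonine and proline and carries dense O-linked sugar chains. Transmembrane mucins such as MUC1 and MUC16 coat the apical face of epithelial cells, and their shed parts are the blood tumor antigens CA15-3 and CA125. Gel-forming mucins such as MUC2, MUC5AC and MUC5B are secreted and build mucus. MUC16 is known as the antigen followed in the blood of women with epithelial ovarian cancer.

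The transfected gene, the depth and the identity of the cells were checked first. The samples held between 29699741 and 63613710 estimated counts, and BRG1 sample 3 was the shallowest. SMARCA4 stood between 31.6 and 36.7 CPM (estimated counts per 1000000 counts of the library, with totals scaled by TMM factors) in Control and between 1710 and 2310 CPM in BRG1 samples, plasmid transcripts included. SMARCA2, which encodes the other ATPase, stayed between 0.0783 and 0.774 CPM in all samples. Of 7 epithelial markers, EPCAM and KRT19 had 3 counts or fewer in every sample, and the summed level of the list ran from 2.66 to 3.44 CPM in Control and from 14.4 to 44.7 CPM in BRG1 samples. CLDN4 was the most abundant of them in Control and KRT8 in BRG1 samples. EdgeR called 3 of the 5 that passed the low-count filter higher, against 9.57% of all genes tested. It did not call CLDN4 (edgeR adjusted p = 0.0645). Nor did it call CDH1, named after its values were seen (log2 fold change -0.02, edgeR adjusted p = 0.993). Of 5 granulosa cell markers, FOXL2 was at 3 counts or fewer throughout. Sums ran from 6.39 to 10.2 CPM in Control and from 13.8 to 19.6 CPM in BRG1 samples. AMH was the most abundant of them, but its groups overlapped (edgeR log2 fold change 0.45, adjusted p = 0.406). INHA had a log2 fold change of -0.15 (edgeR adjusted p = 0.850). CYP19A1, named after its values were seen, went from a mean of 0.508 to 6.95 CPM (edgeR adjusted p = 0.000718). The 3 endothelial markers, led by VWF, summed to between 0.586 and 1.98 CPM in Control and to between 72.6 and 83.8 CPM in BRG1 samples. VWF made up most of the BRG1 sums, at a mean of 75.7 CPM. EdgeR called 2 of the 3 higher. PECAM1, named after its values were seen, overlapped between groups and was not called (edgeR adjusted p = 0.758). Sums of 4 leukocyte markers, led by CD68, overlapped between groups (40.2 to 63.0 CPM and 52.2 to 83.5 CPM), as did those of 4 fibroblast markers, led by LUM (26.3 to 29.4 CPM and 21.1 to 29.1 CPM), and CD3E had 3 counts or fewer in every sample. The part of these marker shifts in the values of the mucin genes was not tested.

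Transmembrane mucins made up nearly all of the mucin RNA in these cells. MUC16 rose from 0 counts in every Control sample to a mean of 2.87 CPM with BRG1. MUC1 and MUC20 were higher in each BRG1 sample than in any Control sample, by 1.67-fold and 1.91-fold, but neither passed the edgeR test, and MUC1 alone of the pair passed it with the replicates paired. The gel-forming mucins stayed at a few counts or fewer in both groups.

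The 4 windows of upstream sequence are shown because MUC16 was the member that rose, MUC1 was the most abundant, and the MUC13 window holds the AP-1 letters. They are the 250 bases before a transcription start in RefSeq (GRCh38.p14, each on the minus strand and written 5′ to 3′), with MUC16 given at both of its RefSeq starts and MUC1 at the farther upstream of its pair of starts. Capitals mark matches, on either strand, to any of 7 searched motifs. The farther MUC16 window lies outside the gene as GENCODE release 44 draws it (8848844 to 9010390). The MUC13 window lies inside its gene (124905442 to 124953819). Which starts these cells use was not tested.
MUC16, chr19:9065752-9066001: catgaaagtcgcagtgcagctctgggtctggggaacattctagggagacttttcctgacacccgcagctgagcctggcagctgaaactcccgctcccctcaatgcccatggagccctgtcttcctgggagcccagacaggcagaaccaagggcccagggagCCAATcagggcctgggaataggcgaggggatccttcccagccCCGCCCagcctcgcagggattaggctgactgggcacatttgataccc
MUC16, chr19:9010410-9010659: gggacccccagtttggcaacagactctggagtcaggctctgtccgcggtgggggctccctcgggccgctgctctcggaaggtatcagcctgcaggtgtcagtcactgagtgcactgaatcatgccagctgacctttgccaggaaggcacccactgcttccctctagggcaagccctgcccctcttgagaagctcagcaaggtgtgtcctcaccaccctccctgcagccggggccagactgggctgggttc
MUC1, chr1:155192916-155193165: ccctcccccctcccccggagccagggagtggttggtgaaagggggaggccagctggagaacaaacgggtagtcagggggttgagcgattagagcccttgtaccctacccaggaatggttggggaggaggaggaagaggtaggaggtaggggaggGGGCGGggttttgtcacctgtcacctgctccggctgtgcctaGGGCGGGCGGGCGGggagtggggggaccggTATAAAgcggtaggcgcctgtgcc
MUC13, chr3:124934752-124935001: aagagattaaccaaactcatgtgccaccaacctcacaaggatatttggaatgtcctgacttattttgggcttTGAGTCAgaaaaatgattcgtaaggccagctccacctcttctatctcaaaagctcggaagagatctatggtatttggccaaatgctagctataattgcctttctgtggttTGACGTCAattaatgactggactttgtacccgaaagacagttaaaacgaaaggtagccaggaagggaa
The motifs were AP-1 (TGAGTCA), CRE (TGACGTCA), the GC box (GGGCGG), the CCAAT box (CCAAT), the TATA box (TATAAA), ISRE and GAS (TTCNNNGAA). AP-1 is the dimer of FOS and JUN family proteins that the study ties to BRG1. The farther MUC16 window held a CCAAT box 89 to 85 bases before the start and a GC box 47 to 42 bases before it, and the nearer one held none of the motifs. The MUC1 window held a TATA box 24 to 19 bases before the start and 4 GC boxes, of which the 3 nearest the start run into each other by overlap. From the other MUC1 start, which is not shown, the same TATA box lies 30 to 25 bases away. The AP-1 letters lay in the MUC13 window, 178 to 172 bases before the start, together with a CRE at 68 to 61. Among all 35116 windows of this length, 4.2% held the AP-1 letters, 1.65% the CRE, 42.6% a GC box, 32.0% a CCAAT box, 10.7% TATAAA, 3.02% the ISRE and 6.57% the GAS letters. Windows were on hand for 5 of the 10 members, and the other two with a window, MUC2 and MUC4, held neither the AP-1 letters nor a CRE. In BIN67 cells the paper found most gained accessibility in introns and intergenic regions, which these windows leave out. Whether any motif bears on the RNA values was not tested.

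MUC16 encodes CA125, the longest of the membrane mucins. The gene spans bases 8848844 to 9010390 of chromosome 19, minus strand (GRCh38, GENCODE release 44), and its canonical transcript has 84 exons and 43.8 kb. Its estimated counts were 0, 0 and 0 in Control samples 1 to 3 and 194.57, 168.82 and 78.41 in BRG1 samples 1 to 3. Scaled for depth, the BRG1 samples stood at 3.01, 3.04 and 2.57 CPM. The BRG1 samples lay close together, with a mean of 2.87 ± 0.260 CPM (SD, n = 3), and none overlapped Control. A count of 0 allows up to 3 counts in a library, which is 0.0803, 0.0771 and 0.0492 CPM in Control samples 1 to 3. Against that floor MUC16 was at least 41.7-fold higher with BRG1, and at least 37.4-fold, 39.4-fold and 52.3-fold higher in replicates 1, 2 and 3. These limits cover counting error only, since PCR copies were not marked.

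The edgeR quasi-likelihood test, fitted over 14246 genes, called MUC16 higher (adjusted p = 0.000478). It was the 1 member called among the 4 that passed the low-count filter, and 9.57% of all genes tested were called higher. MUC16 passed that filter through its BRG1 samples alone. Its call held with DESeq2 (adjusted p = 5.25e-13), with limma-voom (adjusted p = 0.000103) and in each of 6 edgeR fits that left out a sample (adjusted p 0.000364 to 0.00487). Of the 19899 genes, 2769 had 0 counts in every Control sample, and 39 of these had at least 10 counts in every BRG1 sample. By mean CPM in BRG1 samples, MUC16 ranked 9 among those 39. Reads came from pools of cells, so more cells with MUC16 RNA and more RNA per cell cannot be told apart.

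**Figure D1:**
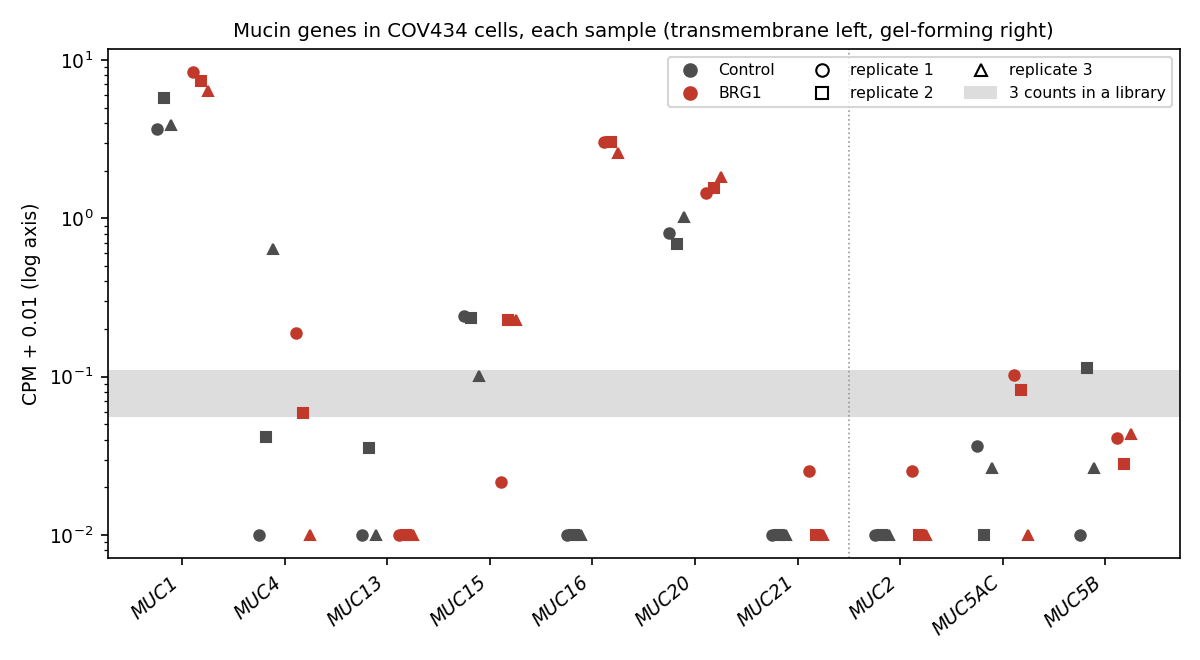
CPM of the 10 mucin genes in each of the 6 samples, with 0.01 added, on a log axis, and replicates told apart by symbol. MUC16 lies at 0 in the 3 Control samples and between 2.57 and 3.04 CPM in the BRG1 samples, while the gel-forming genes at the right lie near or below the grey band, which marks 3 counts in a library.

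MUC1 encodes a cell surface mucin known for its signaling tail, and it was the most abundant member in both groups. Bases 155185824 to 155192916 of chromosome 1, minus strand, hold the gene, and 2.0% of its exonic bases are shared with another annotated gene. Control samples 1 to 3 held 3.64, 5.76 and 3.89 CPM and BRG1 samples held 8.33, 7.39 and 6.39 CPM. Every BRG1 sample was above every Control sample, with Control sample 2 the nearest to the BRG1 samples. The mean went from 4.43 ± 1.16 to 7.37 ± 0.968 CPM (SD, n = 3). This was a difference of 0.74 ± 0.25 (SE) on the log2 scale, with a 95% interval of 0.15 to 1.32. The edgeR test did not call it (adjusted p = 0.131, unadjusted p = 0.0197). Samples that share a replicate number deviated together from their group means and were taken as pairs. With the replicate block, the MUC1 difference was 0.75 ± 0.21 (SE) on the log2 scale, with a 95% interval of 0.27 to 1.24. EdgeR called MUC1 higher in that fit (adjusted p = 0.0432), against a background of 13.7% of genes called higher. DESeq2 also called it (adjusted p = 0.0332 without the block and 0.0228 with it), against backgrounds of 10.7% and 13%. So did edgeR with the block and no filter (adjusted p = 0.0294), against 11.7%. Within replicates 1, 2 and 3 the fold was 2.29, 1.28 and 1.65.

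MUC20, a small membrane mucin, moved in a similar way at a lower level. Its plus-strand locus on chromosome 3 spans bases 195720884 to 195741123. Control samples 1 to 3 held 0.80, 0.676 and 1.01 CPM and BRG1 samples held 1.43, 1.55 and 1.80 CPM. The groups did not overlap, and all 3 replicate numbers rose, by 1.79-fold, 2.30-fold and 1.78-fold. The mean was 0.828 ± 0.169 CPM in Control and 1.60 ± 0.189 CPM with BRG1 (SD, n = 3). On the log2 scale they differed by 0.93 ± 0.32 (SE), with a 95% interval of 0.20 to 1.66. No fit called it, with adjusted p-values of 0.128 in edgeR, 0.0662 in DESeq2 and 0.0635 in edgeR with the replicate block. Its value is uncertain, because 27.1% of its exonic bases are shared with the noncoding gene MUC20-OT1, strand was not kept and a pseudogene copy lies on the same chromosome.

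Every BRG1 sample stood above every Control sample in 3 of the 10 members, MUC1, MUC16 and MUC20, all of them among the 4 that passed the filter. That order held for 15.9% of the 14246 genes that passed, a base that the other 6 members are not part of. No member had the reverse order (0 of 10), which 11.2% of genes tested had. EdgeR also called 0 members lower, against 1.02% of all genes tested. At p under 0.05 before adjustment it had 0 of the 4 lower, against 869 of the 14246 genes. DESeq2 (1.78%), edgeR with the block (5.68%), edgeR with the block and no filter (5.42%), edgeR with no filter (0.823%) and DESeq2 with the block (6.39%) called no member lower either, the share in parentheses being that of all genes tested which each called lower. 

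**Figure D2:**
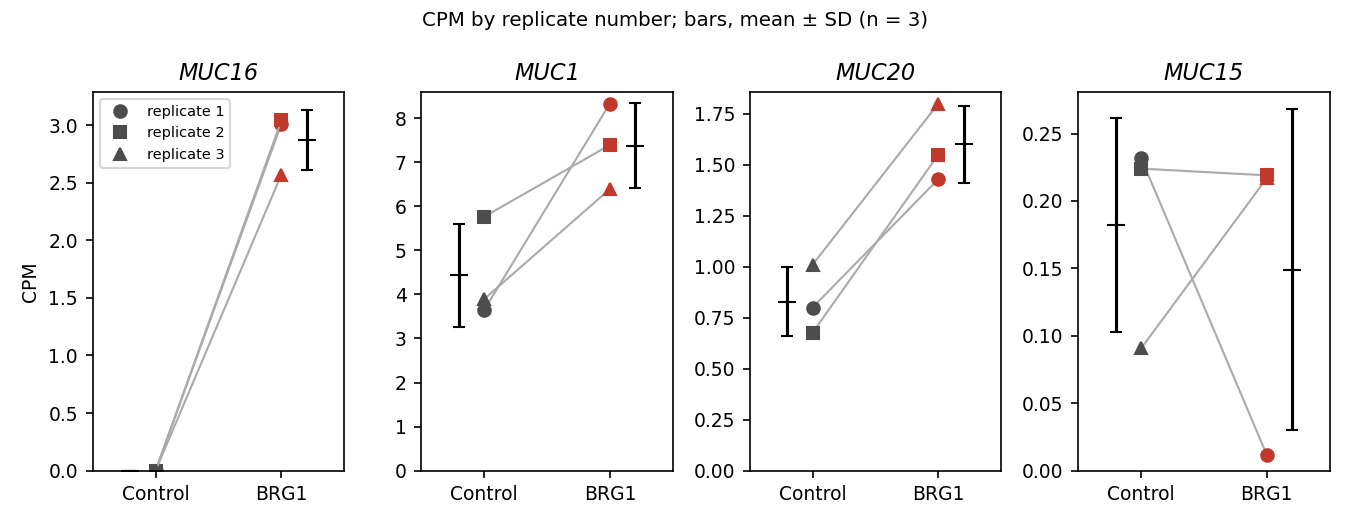
CPM of the 4 members that passed the low-count filter in Control and BRG1 samples, with lines joining samples of the same replicate number and bars for the mean ± SD (n = 3). MUC16, MUC1 and MUC20 were higher with BRG1 within all 3 numbers, whereas the MUC15 lines cross.

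MUC15, a membrane mucin first described in milk, did not separate the groups. The gene, at bases 26559032 to 26572263 of chromosome 11 (minus strand), shares 4.88% of its exonic bases with ANO3. Its estimated counts were 8.67, 8.72 and 5.52 in Control samples 1 to 3 and 0.75, 12.19 and 6.60 in BRG1 samples. BRG1 sample 1 was the low one, and the other two were within the Control range of CPM. The fitted log2 fold change was -0.36 ± 0.85 (SE, edgeR adjusted p = 0.872), and its 95% interval ran from -2.33 to 1.60. That interval is wide, and a moderate change in either direction was not detectable at this depth.

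MUC4, a membrane mucin that binds the receptor ERBB2, was seen mainly in 1 Control library. Its gene, at bases 195746765 to 195811973 of the minus strand of chromosome 3, is 5.64 kb from MUC20. Its estimated counts were 0, 1.24 and 38.40 in Control samples 1 to 3 and 11.66, 2.70 and 0 in BRG1 samples. Control sample 3 alone gave the Control mean its size (0.221 ± 0.355 CPM, SD, n = 3), and the groups overlapped. MUC20 in that library, at 1.01 CPM, was the highest of the Control values but below each BRG1 value. MUC4 did not pass the low-count filter, and DESeq2, which tested it, did not call it (adjusted p = 0.798).

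MUC13 and MUC21 completed the membrane mucins. MUC13 (chromosome 3, 124905442 to 124953819), known from the gut lining, had 1.00 estimated count in Control sample 2 and 0 in the other samples. MUC21 (chromosome 6, 30983718 to 30989903), known from squamous epithelium, had 1.00 in BRG1 sample 1 and 0 elsewhere. At 0 counts a library allows a level of up to 0.0985 CPM in BRG1 sample 3, the shallowest, and 0.0464 CPM in BRG1 sample 1, the deepest.

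The gel-forming mucins sit together on the plus strand of chromosome 11, where MUC2 (1074875 to 1110511) lies 47.4 kb from MUC5AC (1157953 to 1201138), which lies 21.9 kb from MUC5B (1223066 to 1262172). MUC2, the mucin of intestinal mucus, had 1.00 estimated count in BRG1 sample 1 and 0 in the other samples. MUC5AC, the mucin of stomach surface and airway goblet cells, had 1.00, 0 and 1.00 in Control samples 1 to 3 and 5.98, 4.0 and 0 in BRG1 samples. MUC5B, the main mucin of airway glands, had 0, 4.01 and 1.00 in Control samples and 1.99, 1.00 and 1.01 in BRG1 samples. Of these 3 genes, MUC2 was at or under 3 counts in every sample and the other two exceeded 3 counts in at most 2 libraries. None of them passed the filter, and a difference between groups was not detectable at this depth. EdgeR without the filter tested all 10 members and called MUC16 alone, against 8.1% of its 18096 genes called higher. DESeq2 called none of the 6 members that the filter removed, and gave no adjusted p for MUC2, MUC13 and MUC21.

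Levels of different members were compared per length, as CPM per kb of each gene's canonical transcript. In Control samples MUC1 was the highest at 2.45 ± 0.639 CPM per kb, followed by MUC20 at 0.332 ± 0.0677 and MUC15 at 0.0538 ± 0.0235 (SD, n = 3). These 3 genes did not overlap. MUC4 at 0.0132 ± 0.0212 could not be separated from MUC15, since its Control sample 3 reached 0.0376. In BRG1 samples the order was MUC1 at 4.07 ± 0.535, MUC20 at 0.639 ± 0.0755, MUC16 at 0.0656 ± 0.00599 and MUC15 at 0.0441 ± 0.0352 CPM per kb. MUC16 and MUC15 overlapped there, with ranges of 0.0587 to 0.0694 and 0.00342 to 0.0647. The canonical transcript of MUC16 has 43.8 kb and that of MUC1 has 1.81 kb. Both lengths come from a later GENCODE release than the authors used. Gene totals do not show which transcripts were expressed, so the values per kb and their order hold for the canonical lengths only. By CPM over all 19899 genes, MUC1 ranked 10539 in Control and 10247 in BRG1 samples, and MUC16 ranked 11527 in BRG1 samples. Transcripts of mucins hold long tandem repeats, and how the authors' software placed reads within them cannot be seen from gene totals.

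**Figure D3:**
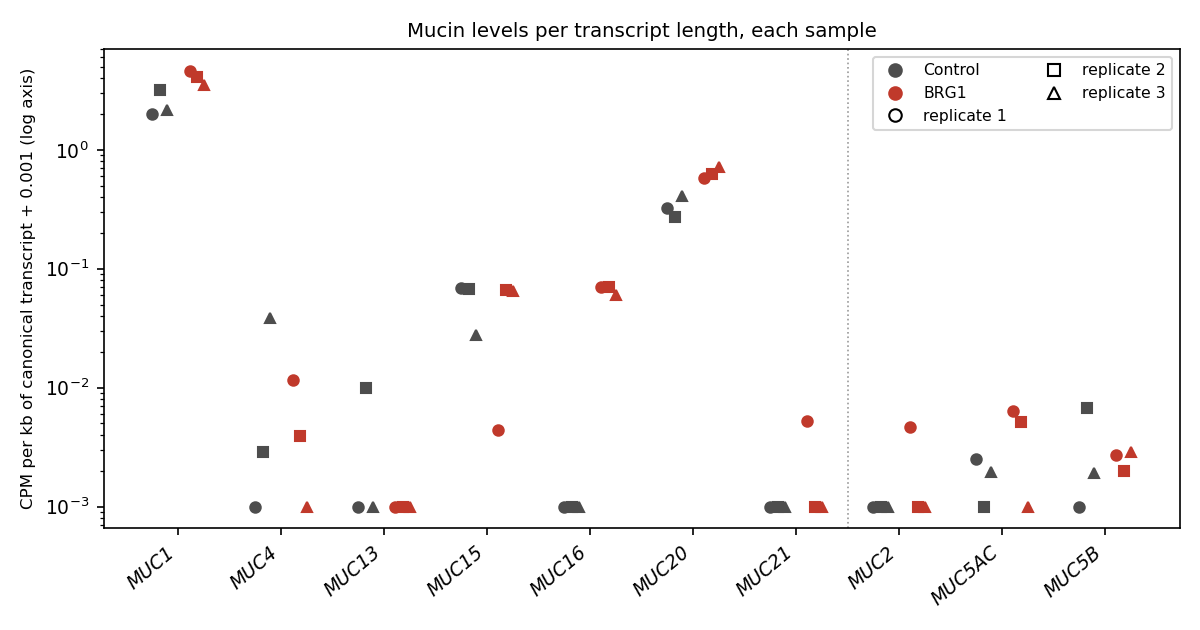
CPM per kb of canonical transcript for the 10 mucin genes in each sample, with 0.001 added, on a log axis. MUC1 lies highest in both groups, and MUC16 in BRG1 samples lies among the values of MUC15, at 0.0587 to 0.0694.

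Mucin genes outside the chosen 10 were read from a list of other mucins. Of its 12 genes in the table, 5 passed the filter, and edgeR called 2 higher and 0 lower, with 3 and 0 at p under 0.05 before adjustment, and 3 called higher by DESeq2. Over all genes tested these shares were 9.57% higher and 1.02% lower in edgeR and 10.7% higher in DESeq2, and 2065 of 14246 genes were higher at p under 0.05 before adjustment. MUC12 and MUC3A passed the filter through their BRG1 samples alone. The called genes were the membrane mucins MUC12 and MUC3A, which lie 1.22 kb apart on chromosome 7. MUC12 had 0.0143, 0 and 0 CPM in Control samples 1 to 3 and 2.92, 2.90 and 0.881 CPM in BRG1 samples, at least 32.5-fold higher (edgeR adjusted p = 0.00136). MUC3A had 0.0458, 0.133 and 0.169 CPM in Control and 3.40, 1.22 and 0.628 CPM in BRG1 samples, a log2 fold change of 3.89 ± 0.76 (SE, edgeR adjusted p = 0.0133). That call was lost without Control replicate 1 (adjusted p = 0.0612) or Control replicate 2 (adjusted p = 0.0674). BRG1 sample 3, the shallowest library, was the lowest of the BRG1 samples for both genes, as for MUC16 and MUC1 but not MUC20. They are related neighbours, and how reads were shared between this pair is uncertain. MUCL1, named after its values were seen, had every BRG1 sample below every Control sample, with means of 0.480 and 0.918 CPM. It was not called (edgeR adjusted p = 0.254). In the list of 12, 4 genes had the reverse order and 1 the order of MUCL1, which 15.9% and 11.2% of the 14246 genes tested had. EMCN, 1 of those 4 and named after its values were seen, did not pass the filter and is not part of that base.

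The enzymes that build O-linked chains on mucins were examined as a list of 33 genes in the table. Of 25 that passed the filter, 7 were called higher and 0 lower by edgeR (8 and 0 at p under 0.05 before adjustment), and DESeq2 called 9 higher and 0 lower. With the replicate block edgeR called 7 higher and 2 lower, the latter being GALNT4 and GALNT11 (named after their values were seen). Over all genes tested, edgeR called 9.57% higher and 1.02% lower, DESeq2 10.7% and 1.78%, and edgeR with the block 13.7% and 5.68%. The median log2 fold change of the 25 was 0.13, against -0.04 over all genes tested. Of the called enzymes, GALNT18, GALNT8, GALNT14 and GCNT4 passed the filter only with the help of their BRG1 samples. The list was also chosen with earlier results of these data known. The 7 of 25 therefore cannot be read as a rise of the enzymes as a set. ST3GAL1, which adds sialic acid to the core disaccharide and so caps the chain, had 1.24, 2.09 and 0.794 CPM in Control and 54.3, 39.6 and 21.5 CPM in BRG1 samples, a 28.6-fold difference (edgeR adjusted p = 0.000571). All BRG1 values were far above Control, and the lowest came from BRG1 sample 3.

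The other enzymes called belong mostly to the family that starts the chain by adding N-acetylgalactosamine to serine or threonine. GALNT18 went from 0.0822 ± 0.0654 to 7.97 ± 4.08 CPM (SD, n = 3; edgeR adjusted p = 0.000535). WBSCR17, also known as GALNT17, went from 3.49 ± 0.929 to 14.3 ± 1.49 CPM (SD, n = 3; edgeR adjusted p = 0.00130). GALNT8 went from 0.214 ± 0.0617 to 1.68 ± 0.646 CPM (SD, n = 3; edgeR adjusted p = 0.00495). GALNT10, GALNT14 and the branching enzyme GCNT4 (picked after seeing their values) had log2 fold changes of 1.17, 2.30 and 3.73 (edgeR adjusted p = 0.0191, 0.0385 and 0.0392). GALNT14 lost its call in every fit that left out a sample, GCNT4 in all but that without BRG1 replicate 3, and GALNT10 without any of the Control replicates. GALNT1 and GALNT2, abundant members of this family, and the core enzyme C1GALT1 with its chaperone C1GALT1C1, likewise picked, had log2 fold changes of 0.43, 0.14, 0.09 and 0.05 and were not called by edgeR, although GALNT1 was called without BRG1 replicate 3 (adjusted p = 0.0295).

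Genes of mucus-secreting cells were examined as a list of 22. Of these, 11 passed the filter, and edgeR called 1 higher and 0 lower (3 and 1 at p under 0.05 before adjustment), as did DESeq2. That is 9.09% of the 11 tested genes of the list called higher by edgeR, close to the 9.57% of all genes tested. The median log2 fold change was -0.11, against -0.04 over all genes tested. The gene called was SYTL2, which helps tether secretory vesicles and is not specific to mucus cells. It stood at 3.35, 5.02 and 3.58 CPM in Control and at 46.8, 40.1 and 16.7 CPM in BRG1 samples (log2 fold change 3.12, edgeR adjusted p = 0.00182). MARCKS, an abundant gene that takes part in mucin exocytosis, had a log2 fold change of -0.11 (edgeR adjusted p = 0.826). With the replicate block edgeR also called KLF4, an epithelial transcription factor (log2 fold change 0.67, adjusted p = 0.0317), and edgeR without the block called it when BRG1 replicate 3 was left out (adjusted p = 0.00772). AGR2, which folds MUC2 in the endoplasmic reticulum, was at or under 0.266 CPM in every sample. SPDEF, a goblet cell transcription factor, was at or under 0.140 CPM, but each BRG1 sample was above every Control sample. The same order held for TFF2, at 0.122, 0.153 and 0.0965 CPM in BRG1 samples and 0, 0 and 0.0161 CPM in Control. AGR2, SPDEF and TFF2 did not pass the filter. CREB3L1 had a log2 fold change of 1.31, with overlap between groups (edgeR adjusted p = 0.236). TFF1, a peptide secreted with stomach mucus, was at 0 throughout. CLCA1, secreted by goblet cells, stood at 1.08, 1.20 and 1.02 CPM in Control and at 0.266, 0.622 and 0.633 CPM in BRG1 samples. The groups did not overlap, but it was not called (log2 fold change -1.14, edgeR adjusted p = 0.164). In the list of 22, 3 genes (SYTL2, SPDEF and TFF2) had every BRG1 sample above every Control sample and 1 (CLCA1) the reverse. Those orders held for 15.9% and 11.2% of the 14246 genes tested, a base that SPDEF and TFF2 are not part of. FCGBP, a mucus protein, had a mean of 10.0 CPM in Control and 7.07 CPM in BRG1 samples, with overlap (log2 fold change -0.51, edgeR adjusted p = 0.592). It was called lower in the blocked fits with DESeq2 (adjusted p = 0.0428) and with edgeR and no filter (adjusted p = 0.0378), though not by edgeR with block and filter (adjusted p = 0.0522). The pioneer transcription factor FOXA1 had a log2 fold change of -0.59 (edgeR adjusted p = 0.410). All mucus cell genes named here but SYTL2 and MARCKS were picked after seeing their values.

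**Figure D4:**
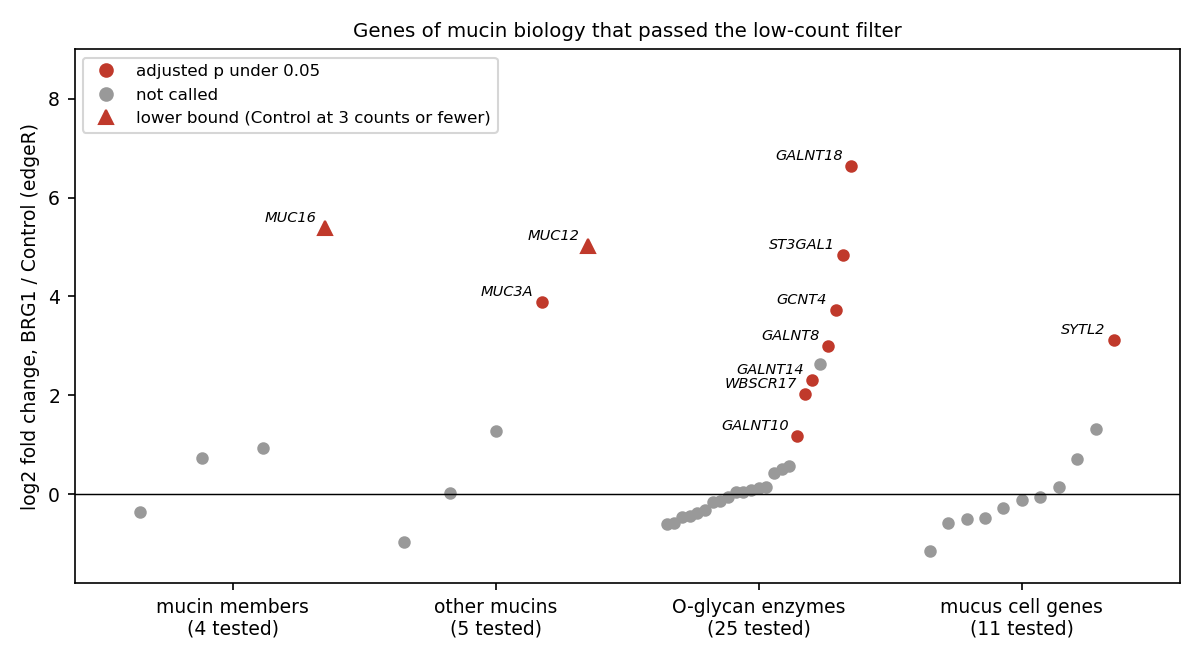
Log2 fold change (BRG1 over Control, edgeR) of the genes that passed the low-count filter in 4 lists, each point a gene and red points those with an adjusted p under 0.05. MUC16 and MUC12 are drawn as triangles at their lower bounds of 5.38 and 5.02, and 1 of 4, 2 of 5, 7 of 25 and 1 of 11 genes were called.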

How the data were processed

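RNA-seq libraries of COV434 cells were made from poly(A) RNA (500 ng input) without keeping strand, and read pairs of 78 bases were sequenced. The authors aligned reads with STAR (2.5.3a) to GENCODE 24, quantified transcripts with salmon (0.8.2) and collapsed transcripts to genes with tximport. What they deposited were estimated counts by gene symbol, in which TPM had been rescaled by the authors to library size and mean transcript length. Reads that fit several genes were shared out by a model, so similar or overlapping genes have uncertain values, and antisense RNA adds to a gene.

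Estimated counts were rounded and tested in R 4.3.3 with the quasi-likelihood test of edgeR (4.0.16), BRG1 against Control with no covariate, TMM factors, genes kept by filterByExpr (14246 genes) and Benjamini-Hochberg adjustment over all of them. Genes with an adjusted p under 0.05 were called. Standard errors were derived from the coefficient and its F statistic. CPM used unrounded counts. Control groups with 3 counts or fewer in every library were set to 3 counts per library for a lower bound of the fold. On simulated data in which 200 genes had a true log2 fold change of size 2, edgeR over 14252 genes recovered 81.5% with 5.23% false calls. The study's tool, DESeq2 (1.42.0 here), recovered 91% over 17459 genes with 26.6% false calls, and was therefore an alternative, as was voom of limma (3.58.1). Other factors, filters, thresholds, the replicate block and leaving out each sample were also tried.

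Deviations from the group means correlated between samples of the same replicate number (Pearson r = 0.508, 0.530 and 0.584 across 14246 genes). All were above 0.1, so the numbers were taken to pair the samples. The main fit left this pairing out, so its standard errors, intervals and p-values ignore it. Fits with the replicate block were alternatives to it. With the block edgeR called 1950 genes higher and 809 lower, against 1364 and 146 in the main fit. The labels do not say what a number marks. The labels call the samples biological replicates without naming separate cultures, so p-values measure the spread between these samples. The members and lists were chosen with earlier results of these data known. All 10 members were named. In the other lists up to 4 called genes per direction with the smallest p were named, or the 2 most abundant where fewer than 2 were called, and other genes are marked as named after their values were seen. A gene that this rule names is not reported here. Coordinates are from GENCODE 44 and upstream windows from RefSeq, both GRCh38, the build in the submitters' processing notes (hg38). MUC19 of the other mucin list was not analysed here.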

Additional observations from a re-analysis of the deposited data

How the results depend on the processing

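MUC16 was called higher, and SMARCA4 too, in every alternative run. No member was called lower in any of them, and the log2 fold changes of MUC1, MUC15, MUC16 and MUC20 kept their sign wherever they were tested. Among members under the filter, DESeq2 gave MUC4 -1.40 and MUC5B -0.52 on the log2 scale without the block and 0.69 and 0.55 with it, and neither was called. Mucin members called higher (1) were 2 with DESeq2, with edgeR and the replicate block (with or without the low-count filter) and with DESeq2 and the block, the added member being MUC1 each time. Its log2 fold changes were 0.76, 0.75, 0.75 and 0.77 there, with adjusted p-values of 0.0332, 0.0432, 0.0294 and 0.0228. Without single samples MUC1 was not called (adjusted p 0.0749 to 0.341), nor was MUC20 (0.162 to 0.317). The block changed no other member's call. The cause of these changes was not tested.

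All genes called lower (146) were 291 with DESeq2, 809 with edgeR and the block, 981 with the block and no filter, 1022 with DESeq2 and the block, 31 at an adjusted p under 0.01, and 39 (without BRG1 replicate 2) to 256 (without BRG1 replicate 3) without single samples. All genes called higher (1364) were 2115 with the block and no filter and 2086 with DESeq2 and the block. Other mucins called higher (2) were 1 at an adjusted p under 0.01 and 1 to 2 without single samples (1 without Control replicate 1 or 2). O-glycan enzymes called higher (7) were 4 at an adjusted p under 0.01 and 4 to 8 without single samples, the 4 arising without each Control replicate. O-glycan enzymes called lower (0) were 2 with edgeR and the block, 3 with the block and no filter and 3 with DESeq2 and the block. Mucus cell genes called higher (1) were 2 in these 3 fits and 1 to 2 without single samples (2 without BRG1 replicate 3), and those called lower (0) were 1 in the last pair of them. With 6 of 10 members under the filter, depth limits what can be said of them.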

Other observations

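Partners of the membrane mucins were looked at after the mucin values were seen. MSLN, which encodes mesothelin, a binding partner of MUC16, was at 0, 0 and 0.0424 CPM in Control samples 1 to 3 and at 0.127, 0.0558 and 0.0586 CPM in BRG1 samples, and it did not pass the low-count filter. LGALS3, which encodes a galectin that binds MUC1, stood between 0.0324 and 0.122 CPM in Control and between 0.0233 and 0.159 CPM in BRG1 samples, and the groups overlapped.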
